A study of Mus musculus with 18 samples.

Results

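The muscle RNA of old and of young adult mice was compared gene by gene. Of the 18 samples of the series, which also hold captured methylated DNA, 6 entered the comparison: 3 RNA-seq libraries of hindlimb muscle at 20 months and 3 at 2 months. All mice were female C57BL/6J animals without any treatment or transgene, and each library came from 1 mouse. Polyadenylated RNA was taken from powdered frozen hindlimb muscle, so several muscles and every cell type in them were measured together. Of the 23420 genes in the table, 13178 had a mean normalized count of at least 10 over the 9 muscle libraries of all ages and were tested. A normalized count is the number of reads on a gene divided by the size factor of its library. Values are given below as normalized counts in the order of libraries 1, 2 and 3, and differences are 20 minus 2 months on the log2(normalized count + 1) scale with their standard error. A gene was called higher or lower at a Benjamini-Hochberg adjusted p under 0.05 in limma, and the p-values measure the spread between the mice of an age.

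Skeletal muscle is made of long multinucleate fibres. Slow fibres use their own set of contractile proteins and burn fat, fast fibres use another set and rely more on glycolysis, and both are wrapped in connective tissue whose collagens are made by fibroblasts. After birth the muscle grows by adding sarcomeres and matrix. With age fibres lose mass and some lose their nerve, and genes for embryonic contractile proteins or for the acetylcholine receptor outside the nerve contact are known to come on again in such fibres.

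The 6 libraries held 23751915 to 71115244 reads on genes. Library 3 of each age stood apart from libraries 1 and 2, with 2.36 to 2.50% of reads not aligned against 4.39 to 5.39% in the others. The first principal component over all genes tested held 36.5% of the variance and placed the 2-month libraries between -59.3 and -31.4 and the 20-month libraries between 14.9 and 25.2. The tissue label was checked against 14 genes of muscle fibres, all of which were detected, and their sum was lowest in library 3 of 20 months. Library 1 of 2 months held 6337 summed normalized counts of neutrophil and marrow genes, against 106 to 185 in the other 5 libraries, and 3138 of bone and cartilage genes against 602 to 773. It also held 10503 counts of red blood cell genes, where the others had 1727 to 3746. For some of the genes whose call ended or whose difference moved when this library was left out, the value without it is given.

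At 20 months 1242 genes were called higher, which was 9.42% of those tested, and 939 were called lower, which was 7.13%. The median difference over all genes was -0.02, with quartiles at -0.25 and 0.21. Most calls were small: 229 of the higher and 247 of the lower genes changed more than 2-fold, and 63 and 71 more than 4-fold. By a fold over 2 and an unadjusted p under 0.05, 299 genes were higher (2.27%) and 382 lower (2.9%). In 2425 genes (18.4%) all 20-month libraries lay above all 2-month libraries, and in 2323 (17.6%) they all lay below. All 2181 called genes kept their sign when libraries were rescaled to 1 sum or quantile normalized, but rescaling gave 354 higher and 232 lower calls. Without library 1 of 20 months 613 higher and 468 lower genes were called, without library 2 of 20 months 720 and 544, and without library 1 of 2 months 565 lower genes were called.

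**Figure D1:**
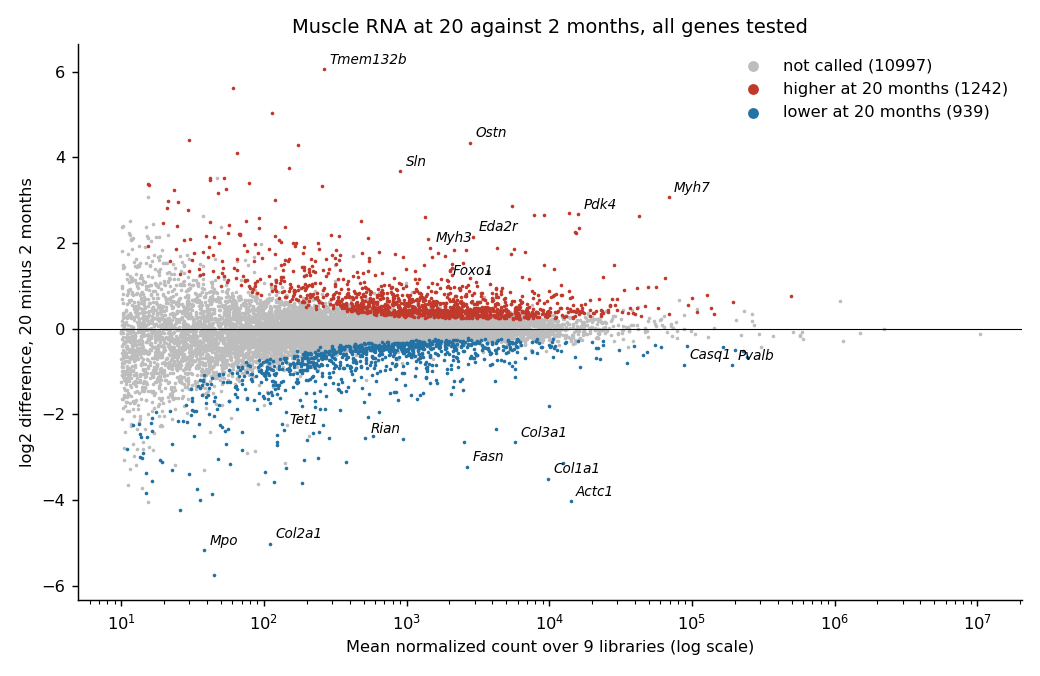
Difference between 20 and 2 months (log2, y axis) against the mean normalized count over 9 libraries (log10 axis) for each of 13178 genes, with genes called higher at 20 months in red (1242) and called lower in blue (939). The lower genes reach further from 0 at high levels than the higher genes, with Col1a1, Col3a1 and Actc1 far below and Myh7 and Pdk4 far above.

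Lists with at least 50% of members lower were the collagen chains (56.1%) and the adipocyte genes (54.2%). Those with at least 50% higher were the slow fibre genes (61.1%), the mechanical stress genes of the sarcomere (53.6%) and the atrophy genes (50%). The lists below were put together with earlier results of these data known, so their counts describe the members and are no test of the process. In many lists with 4 or fewer calls in a direction, leaving out 1 library moved the count by more than 1.5 times, and such counts carry little weight.

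**Figure D2:**
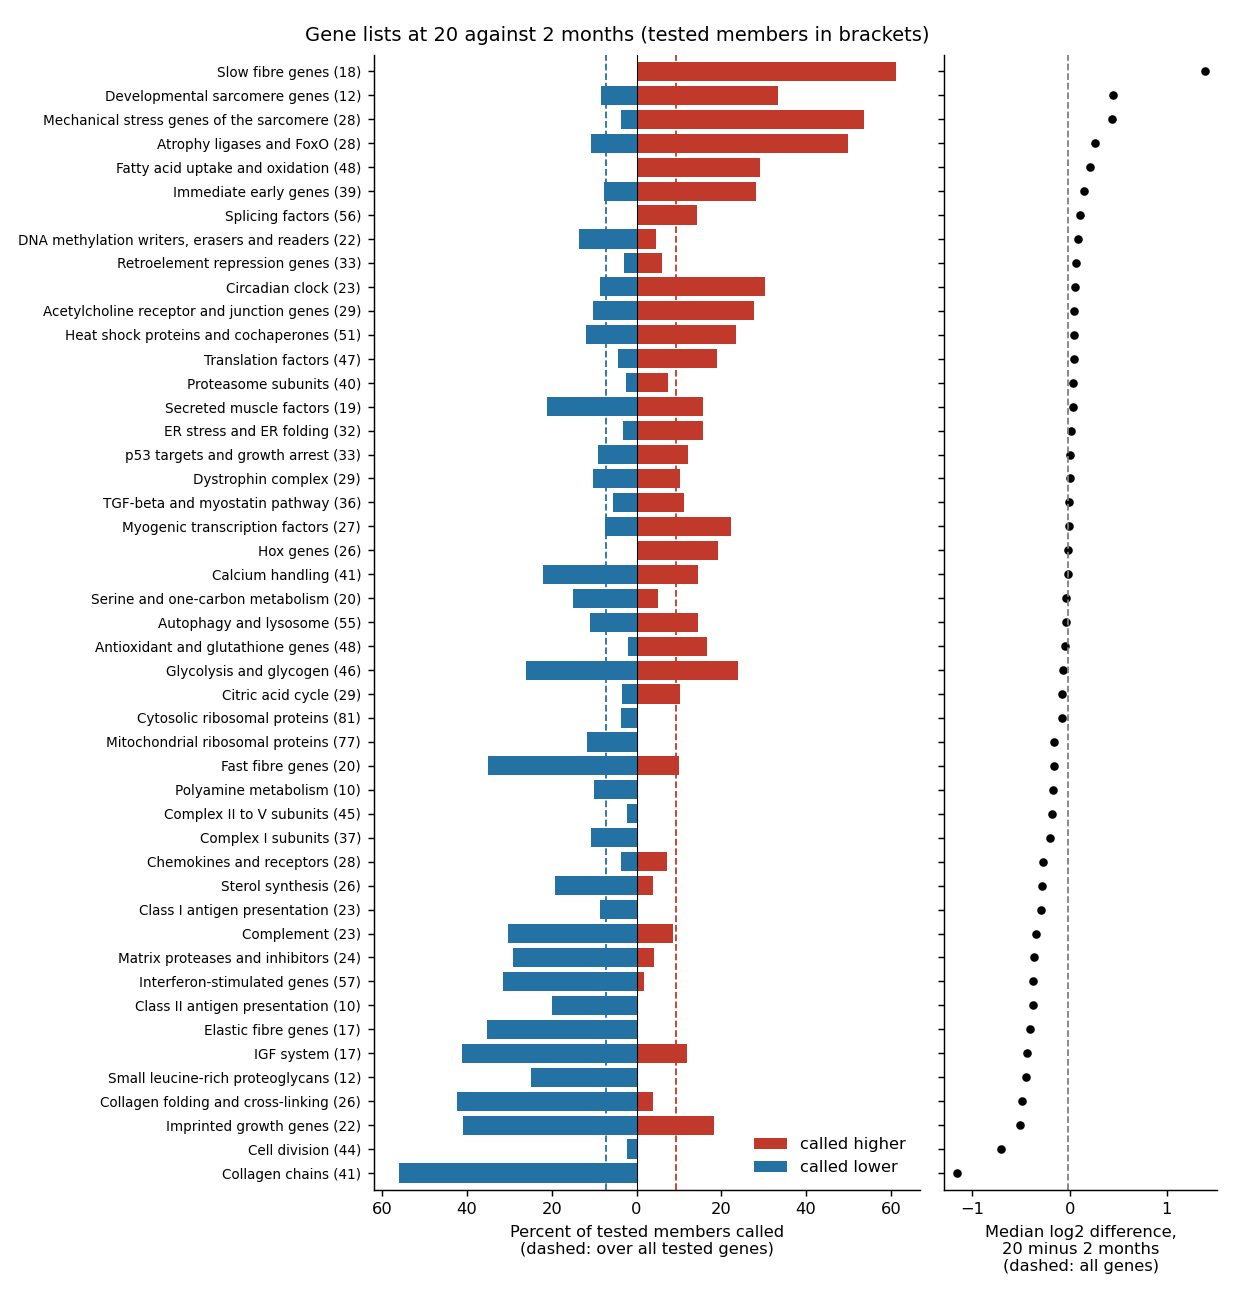
Share of the tested members of each gene list called higher (red, to the right) or lower (blue, to the left) at 20 months, with the median difference of all tested members (log2) on the right and the number tested in brackets. Dashed lines mark the same quantities over all genes, and collagen chains (56.1% lower) and slow fibre genes (61.1% higher) reach the highest shares.

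Collagens, the rope-like proteins that give the muscle its tensile strength, had the highest share of lower genes of any family. Of 41 collagen chains tested, 23 were called lower and 0 higher, and the median difference was -1.16 against -0.02 over all genes. With any 1 library left out 18 to 25 chains were lower. Col1a1, a chain of type I collagen at chr11:94936224-94953042 (GRCm38), had 34207, 11798 and 29946 at 2 months and 2258, 1711 and 2170 at 20 months. Every 2-month library exceeded every 20-month library by far, although library 2 of 2 months held less than its neighbours, and the gene fell by 3.50 ± 0.30 on the log2 scale (adjusted p = 2.2e-05), or 11.3-fold. Its partner Col1a2 measured 40816, 14853 and 37550 at 2 months and 3334, 2921 and 3472 at 20 months. The groups were again apart, with the same low library 2 at 2 months, and Col1a2 fell by 3.13 ± 0.29 (adjusted p = 3.8e-05). Col3a1, the fibrillar collagen of elastic tissues at chr1:45311538-45349706, measured 10899, 10941 and 15596 at 2 months and 2117, 1728 and 2046 at 20 months. Library 2 of 2 months was here as high as library 1, and the fall was 6.28-fold, or -2.65 ± 0.16 (adjusted p = 2.7e-06). Of the type V chains that set fibril diameter, Col5a1 fell by 1.65 ± 0.14 (adjusted p = 2.7e-05) and Col5a3 by 1.67 ± 0.14 (adjusted p = 2.2e-05). The basement membrane chains Col4a1, Col4a2 and Col4a5 and the microfibrillar chains Col6a1, Col6a2, Col6a3 and Col6a6 were also called lower. Summed over the 43 chains in the table, the libraries held 128514, 72657 and 130074 counts at 2 months and 28015, 24381 and 28913 at 20 months.

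The enzymes and chaperones that build collagen followed in part. Of 26 genes of collagen folding and cross-linking 11 were lower and 1 higher, with a median of -0.49. Without library 2 of 2 months 17 were lower, and 7 after rescaling. Serpinh1, the collagen-specific chaperone of the endoplasmic reticulum, had 3780, 3130 and 3984 at 2 months and 1778, 1412 and 1502 at 20 months. All 3 young libraries were higher than all 3 old ones, and the gene fell by 1.21 ± 0.11 on the log2 scale (adjusted p = 2.8e-05). Adamts2, the protease that trims the amino end of procollagen, measured 678, 525 and 678 at 2 months and 230, 228 and 224 at 20 months and so kept nearly the same value in each old library. It fell by 1.45 ± 0.14 (adjusted p = 4.1e-05). Sparc, a collagen-binding matrix protein, measured 21792, 12790 and 22500 at 2 months and 5455, 4782 and 5553 at 20 months. Its old libraries lay close together below the young ones, with a fall of 3.51-fold. Loxl2, which cross-links collagen, fell by 1.39 ± 0.17 (adjusted p = 0.00023), and Pcolce, an enhancer of procollagen processing, by 1.09 ± 0.16 (adjusted p = 0.00062). The member called higher was Leprel1, a prolyl hydroxylase of collagen that is now named P3h2 and that was singled out here after its values were seen. It measured 116, 86.3 and 137 at 2 months and 407, 272 and 374 at 20 months.

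Elastic fibre genes moved the same way, with 6 of 17 lower, 0 higher and a median of -0.40. Eln, the elastin precursor, had 1117, 1441 and 1456 at 2 months and 566, 621 and 580 at 20 months. The old libraries were tightly grouped below the young ones, and Eln fell by 1.17 ± 0.14 on the log2 scale (adjusted p = 0.00023). Fbn2, a fibrillin of developing tissue, was low throughout, at 33.4, 37.0 and 22.4 at 2 months and 1.87, 1.69 and 6.54 at 20 months. Its young libraries were all above the old ones, and it fell by 3.01 ± 0.71 (adjusted p = 0.013). Emilin1, an elastic fibre glycoprotein, fell by 0.92 ± 0.17 (adjusted p = 0.0035). Without library 1 or 3 of 2 months or library 2 of 20 months 3 elastic fibre genes were lower. Among 12 small leucine-rich proteoglycans, which coat collagen fibrils, 3 were lower with a median of -0.45, and 7 were lower without library 2 of 2 months. Kera, a proteoglycan of cornea and tendon, measured 1088, 409 and 1395 at 2 months and 87.8, 84.4 and 125 at 20 months. It was lowest among the young mice in library 2, yet all old libraries were lower still, and it fell by 3.12 ± 0.46 (adjusted p = 0.00081).

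Matrix proteases and their inhibitors had 7 lower and 1 higher of 24 members, with a median of -0.36. Mmp2, a gelatinase, measured 2782, 2259 and 3704 at 2 months and 1741, 1470 and 1567 at 20 months. It was lower in every old library and fell by 0.85 ± 0.16 (adjusted p = 0.0041). Adamts20, a protease of the matrix around migrating cells, fell by 1.51 ± 0.20 (adjusted p = 0.00041) and Adamts15 by 0.95 ± 0.20 (adjusted p = 0.0065). Timp4, an inhibitor of metalloproteases, was the member called higher, at 497, 619 and 495 at 2 months and 820, 888 and 1157 at 20 months. Every old library exceeded the young ones, and Timp4 rose by 0.82 ± 0.20 (adjusted p = 0.016). The call was lost without library 3 of 20 months (adjusted p = 0.061) and also without library 1 of 2 months. Leaving out library 1 of 2 months or library 2 or 3 of 20 months gave 3 lower genes of this list, leaving out library 1 of 20 months gave 4, and rescaling gave 3.

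Several cell types that make matrix or surround fibres had lower marker sums, and in whole muscle fewer cells of a type and less RNA per cell cannot be told apart. The 16 fibroblast markers summed to 60283, 49018 and 66805 counts at 2 months and 44759, 40233 and 42308 at 20 months. Of these 16, 6 were lower and 0 higher, with a median of -0.36, with 10 lower without library 2 of 2 months and 2 after rescaling. Dpt, a dermatopontin of the matrix, had 1812, 2048 and 2037 at 2 months and 1029, 916 and 1007 at 20 months. No old library came near the young ones, and Dpt fell by 1.00 ± 0.10 on the log2 scale (adjusted p = 5.4e-05). Clec3b, or tetranectin, fell by 0.88 ± 0.16 (adjusted p = 0.0032). The defining fibroblast receptor Pdgfra was present in every library and was not among the members called. The tendon markers summed to 44348, 19215 and 44390 counts at 2 months and 24806, 20536 and 23200 at 20 months, so library 2 of 2 months lay below the old libraries. Of 12 tendon markers 3 were lower and 1 higher, with a median of -0.55, and 9 were lower without library 2 of 2 months. Cilp2, a protein of cartilage and tendon matrix, measured 1924, 483 and 1767 at 2 months and 239, 165 and 225 at 20 months, and it fell by 2.50 ± 0.40 (adjusted p = 0.0013). Their part in the collagen result was not tested.

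**Figure D3:**
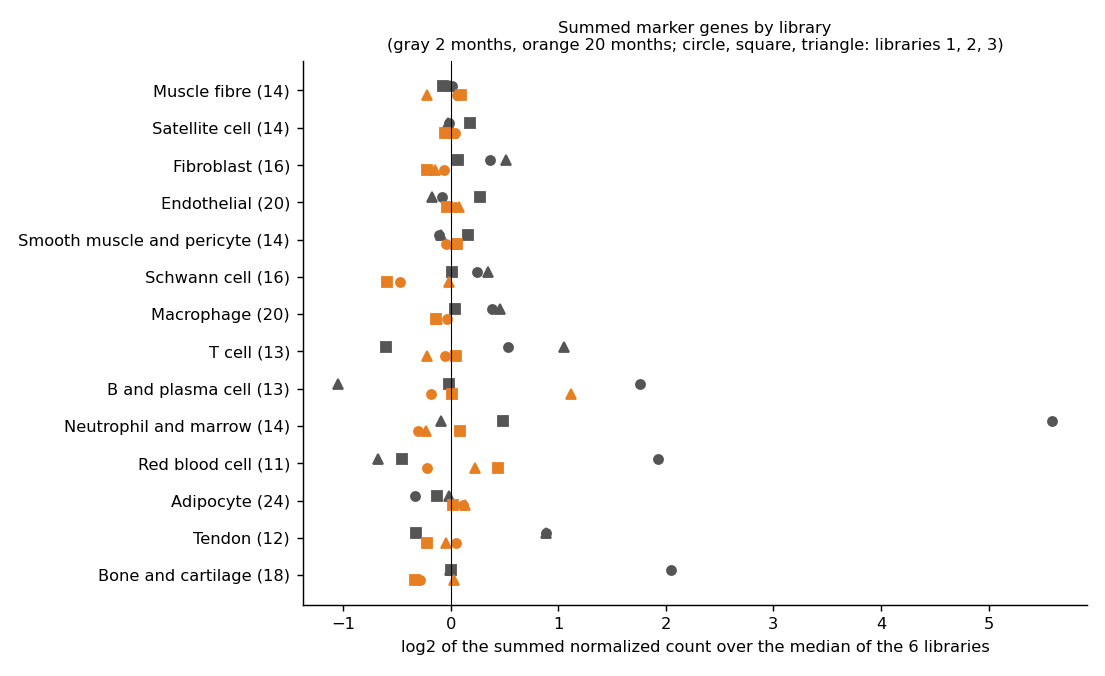
Summed normalized counts of cell type markers in the 6 libraries, as log2 of each sum over the median of the 6 libraries (x axis), with the number of markers in the table in brackets. Library 1 of 2 months (gray circle) stands apart for neutrophil and marrow, bone and cartilage and red blood cell markers, and the 20-month libraries (orange) lie below the 2-month libraries for fibroblasts and macrophages.

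Of 16 Schwann cell markers 2 were lower and 0 higher, with a median of -0.46 and 16 of 16 below 0. Macrophage markers had 4 lower of 20 with a median of -0.43. Folr2, a folate receptor of resident macrophages, measured 116, 178 and 208 at 2 months and 56.0, 33.7 and 44.1 at 20 months and fell by 1.87 ± 0.34 (adjusted p = 0.0034). Lyz1 and Lyz2 were also lower, but these lysozyme copies are near-identical and their reads may be split between them. Endothelial markers had 1 higher and 1 lower of 20 (5% each way, against 9.42 and 7.13% over all genes). Without library 2 of 2 months 4 were higher. Rgcc, a regulator of the cell cycle, rose by 1.51 ± 0.14 (adjusted p = 3.8e-05), while Aplnr, the apelin receptor, measured 484, 603 and 382 at 2 months and 48.6, 128 and 114 at 20 months and fell by 2.41 ± 0.32 (adjusted p = 0.00037). Smooth muscle and pericyte markers had 1 higher (7.14%) and 2 lower (14.3%) of 14. Satellite cell markers had 1 and 1 of 13 (7.69% each way, against 9.42 and 7.13% over all genes). The T-cell receptor chains Cd3d, Cd3e and Cd3g were near 0 in every library, and 2 T-cell markers passed the filter on low values, neither of them called. Of 11 neutrophil and marrow markers Mpo was called lower, and of 11 bone and cartilage markers Col2a1. Mpo, the peroxidase of neutrophil granules, had 314, 26.4 and 4.33 at 2 months and 0, 0 and 0 at 20 months, and without library 1 of 2 months its adjusted p was 0.18. Col2a1, the collagen of cartilage, had 825, 31.7 and 97.5 at 2 months and 1.87, 1.69 and 9.26 at 20 months. It fell by 5.01 ± 0.98 (adjusted p = 0.0047), with a difference of -3.72 without that library (adjusted p = 0.017).

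Genes that make and store fat were mostly lower. The adipocyte list had 13 of 24 members lower and 2 higher, with a median of -1.24, while its sum, which is carried by a few abundant genes also used by fibres, was 127959 to 158838 counts at 2 months and 162603 to 176525 at 20 months. Without library 1 of 2 months 7 adipocyte genes were lower with a median of -0.89, and without library 2 of 20 months 8. Fasn, the fatty acid synthase at chr11:120805958-120825166, had 7063, 2571 and 7551 at 2 months and 516, 606 and 537 at 20 months. Library 2 was the lowest of the young mice, all old libraries were several times lower, and Fasn fell by 3.22 ± 0.39 on the log2 scale (adjusted p = 0.00022). Scd1, which desaturates fatty acids, measured 9988, 5015 and 9711 at 2 months and 1519, 1669 and 1494 at 20 months. Library 2 was again the lowest of the young mice, and Scd1 fell by 2.33 ± 0.27 (adjusted p = 0.00016). Elovl6, which lengthens fatty acids, had 517, 238 and 437 at 2 months and 20.5, 32.1 and 40.9 at 20 months and fell by 3.61 ± 0.49 (adjusted p = 0.00044). Thrsp, an activator of lipid synthesis, fell by 2.05 ± 0.24 (adjusted p = 0.00015), and Cfd, the complement factor adipsin that adipocytes secrete, fell by 2.58 ± 0.34 (adjusted p = 0.00033). Plin4, a coat protein of lipid droplets, went the other way, at 5960, 6642 and 5710 at 2 months and 10502, 8759 and 10909 at 20 months. Each old library was above each young one, and Plin4 rose by 0.72 ± 0.09 (adjusted p = 0.00037). Adrb3, the adipocyte adrenergic receptor, was near 0 at 20 months, with 89.2, 10.6 and 44.8 at 2 months and 0, 1.69 and 1.63 at 20 months, and its adjusted p without library 1 of 2 months was 0.058.

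Sterol synthesis had 5 lower and 1 higher of 26 members and a median of -0.28. Insig1, which holds the sterol sensor in the endoplasmic reticulum, had 637, 530 and 603 at 2 months and 338, 341 and 357 at 20 months. It fell by 0.77 ± 0.12 on the log2 scale (adjusted p = 0.0012), and Srebf1, the transcription factor of lipid synthesis genes, by 0.72 ± 0.14 (adjusted p = 0.0046). Hsd17b7, an enzyme late in cholesterol synthesis, measured 468, 451 and 384 at 2 months and 915, 845 and 725 at 20 months and rose by 0.93 ± 0.14 (adjusted p = 0.00089). Without library 1 or 3 of 2 months or library 1 or 2 of 20 months 3 sterol genes were lower, and 1 after rescaling.

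Fatty acid uptake and oxidation moved the other way, with 14 of 48 genes higher, 0 lower and a median of 0.21. Pdk4, the kinase that switches off pyruvate dehydrogenase and so spares glucose, had 5262, 6353 and 3345 at 2 months and 39564, 18994 and 38186 at 20 months. Library 2 was the lowest of the old mice, yet it was about 3 times the highest young value. Pdk4 rose by 2.67 ± 0.34 on the log2 scale (adjusted p = 0.00029), or 6.35-fold. Ucp3, the uncoupling protein of muscle mitochondria, measured 1340, 1480 and 1221 at 2 months and 5688, 3013 and 6338 at 20 months. The same library 2 was the lowest of the old mice, all of which exceeded the young, and Ucp3 rose by 1.83 ± 0.25 (adjusted p = 0.0005). Acot2, a mitochondrial thioesterase, rose by 1.10 ± 0.22 (adjusted p = 0.0053), and Fabp3, the fatty acid carrier of muscle, by 0.82 ± 0.16 (adjusted p = 0.0044). Without library 1 of 2 months 7 members were higher, without library 3 of 20 months 7 and without library 1 of 20 months 8, and without the 3 libraries numbered 3 the count was 3. It was 5 after rescaling.

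Glycolysis and glycogen had 11 higher and 12 lower of 46 and a median of -0.07, and 3 and 2 after rescaling to 1 sum. Of the higher genes Gys1, Gyg, Gbe1, Ugp2, Ppp1r3a and Ppp1r3c serve glycogen storage, a grouping made after the calls were seen. Pfkfb1, a regulator of glycolysis, was also called higher. Gbe1, which makes the branches of glycogen, had 2298, 3544 and 2543 at 2 months and 4603, 4932 and 5024 at 20 months. All old libraries lay above all young ones, and Gbe1 rose by 0.82 ± 0.13 on the log2 scale (adjusted p = 0.0012). Ugp2, which supplies UDP-glucose, rose by 0.69 ± 0.11 (adjusted p = 0.0014), and Ppp1r3c, which brings a phosphatase to glycogen, by 0.69 ± 0.11 (adjusted p = 0.0013). Gys1 is the glycogen synthase of muscle and Gyg the protein on which a glycogen particle starts. Among the lower genes were the glycolytic enzymes Tpi1, Pgk1, Pgam2, Eno3 and Ldha. Gpd1, which links glycolysis to lipid synthesis, measured 27623, 27289 and 30042 at 2 months and 16525, 19375 and 16742 at 20 months. It was lower in each old library and fell by 0.69 ± 0.09 (adjusted p = 0.00024). Pgam2, the muscle phosphoglycerate mutase, fell by 0.62 ± 0.10 (adjusted p = 0.0018). Higher calls dropped to 5 without library 1 of 2 months and to 4, 5 and 7 without libraries 1, 2 and 3 of 20 months. Lower calls dropped to 7 without library 1 or 3 of 2 months or library 3 of 20 months and to 5 without library 1 of 20 months.

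Mitochondrial genes shifted little and mostly downward. Of 37 complex I subunits 4 were lower and 0 higher, with 36 below 0 and a median of -0.20. Ndufc1, a small subunit of the membrane arm, had 5102, 5198 and 5007 at 2 months and 3602, 3572 and 3683 at 20 months. The groups were apart, and Ndufc1 fell by 0.50 ± 0.08 on the log2 scale (adjusted p = 0.0013). Complexes II to V had 1 lower of 45 (2.22%, against 7.13% over all genes), Cox8a, with a median of -0.18. The call was lost without any of 5 libraries, with an adjusted p of up to 0.11 without library 3 of 20 months. Mitochondrial ribosomal proteins had 9 lower of 77 with a median of -0.16. Mrpl27 measured 838, 895 and 724 at 2 months and 549, 518 and 591 at 20 months and fell by 0.56 ± 0.13 (adjusted p = 0.013), a call lost without library 2 of 20 months (adjusted p = 0.056). Complex I had 1 or 2 calls without any of the libraries 1 and 2 of 2 months or 1, 2 and 3 of 20 months, and the ribosomal list had 1 to 5 without any 1 of the 6. After quantile normalization 8 genes of complex I, 8 of complexes II to V and 12 of the ribosomal list were lower, while none was after rescaling to 1 sum. In the citric acid cycle 3 of 29 genes were higher (10.3%) and 1 lower (3.45%), against 9.42 and 7.13% over all genes. Idh2, the mitochondrial isocitrate dehydrogenase, measured 6794, 11080 and 8896 at 2 months and 19192, 12456 and 17856 at 20 months and rose by 0.89 ± 0.17 (adjusted p = 0.0043). Pcx, the pyruvate carboxylase, measured 6488, 5399 and 4814 at 2 months and 3219, 3262 and 2948 at 20 months and fell by 0.82 ± 0.11 (adjusted p = 0.00036). Each of these had its old libraries wholly apart from its young ones.

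Slow fibre genes had the highest share of higher calls. Of 18 tested, 11 were higher, 0 lower, and 18 lay above 0 with a median of 1.39. Myh7, the slow myosin heavy chain at chr14:54970684-54994626, had 2773, 44700 and 8400 at 2 months and 109827, 62731 and 88434 at 20 months. Library 2 of 2 months held several times the value of the other young libraries, while all old libraries were higher still. Myh7 rose by 3.06 ± 0.68 on the log2 scale (adjusted p = 0.0095), and by 2.13 without library 1 of 2 months (adjusted p = 0.021). Atp2a2, the slow calcium pump of the sarcoplasmic reticulum, had 4643, 22217 and 7922 at 2 months and 75791, 42727 and 61476 at 20 months. It showed the same high library 2 among the young mice and rose by 2.64 ± 0.41 (adjusted p = 0.0012). Myl2, a slow myosin light chain, rose by 2.25 ± 0.43 (adjusted p = 0.004), and Tnnt1, the slow troponin T, by 2.71 ± 0.61 (adjusted p = 0.01), or by 1.97 without library 1 of 2 months. Tnni1, the slow troponin I, measured 455, 6280 and 1128 at 2 months and 12215, 6752 and 10012 at 20 months, where library 2 of 2 months nearly reached library 2 of 20 months, and its adjusted p without library 1 of 20 months was 0.065. Tnni1 rose by 2.67 ± 0.64 (adjusted p = 0.015), and by 1.82 without library 1 of 2 months. Lmod2, which nucleates actin filaments, measured 3198, 7445 and 3508 at 2 months and 14076, 10335 and 12489 at 20 months and rose by 1.48 ± 0.24 (adjusted p = 0.0014). The slow fibre sum was 148580, 368475 and 160330 counts at 2 months and 565632, 400730 and 513516 at 20 months. Without library 2 of 2 months 18 of the 18 genes were called higher, without library 1 of 20 months 5, and without the 3 libraries numbered 3 the count was 2.

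**Figure D4:**
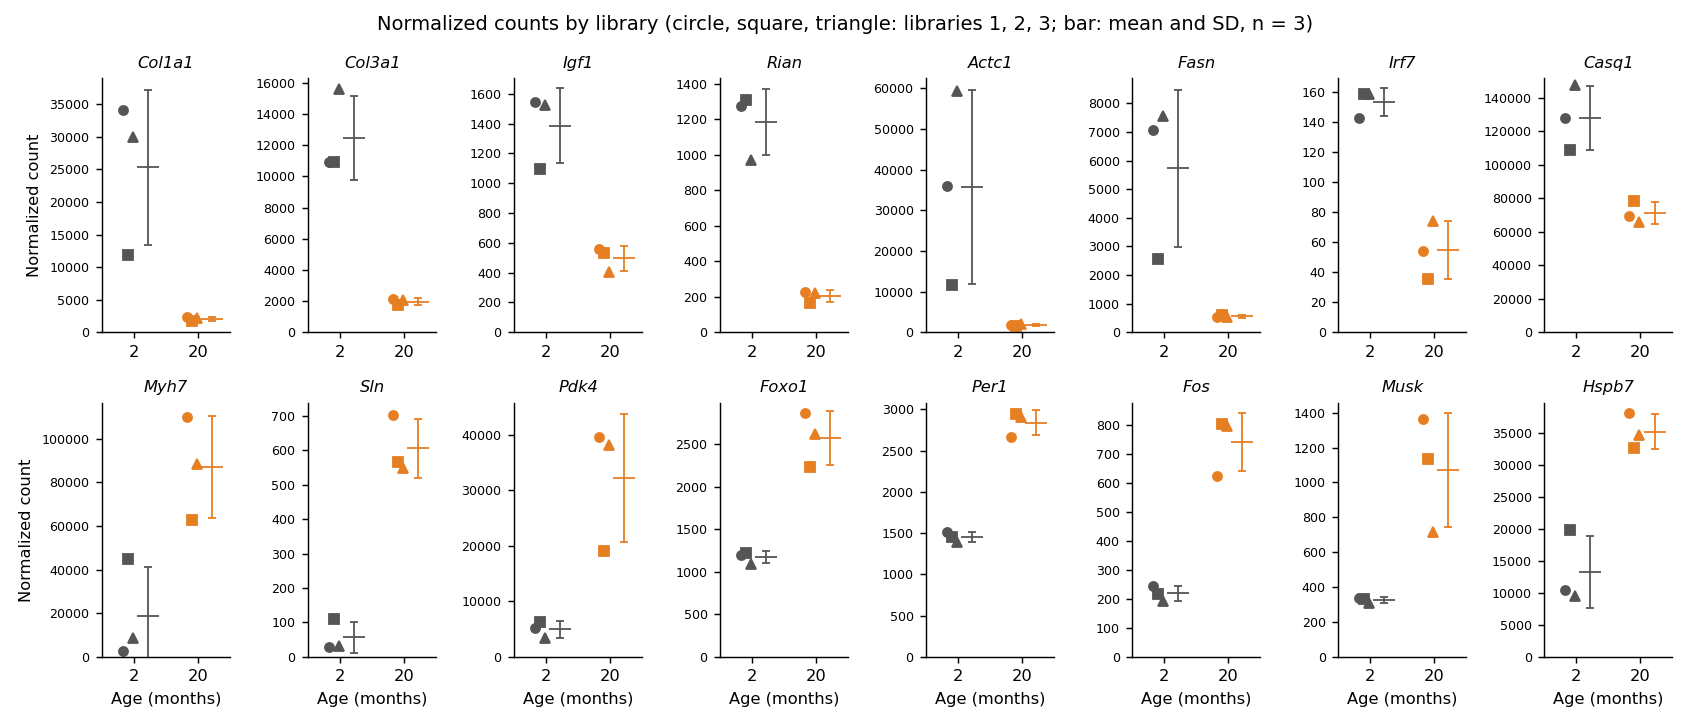
Normalized counts (y axis, from 0) of 16 genes in each library of 2 months (gray) and 20 months (orange), with circle, square and triangle for libraries 1, 2 and 3 and a bar for the mean and SD of 3 libraries. In each gene the groups do not overlap, and library 2 of 2 months is nearest to the old libraries for Col1a1, Actc1, Fasn and Myh7.

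Fast fibre genes had 7 lower and 2 higher of 20, with a median of -0.16. Casq1, the calcium-binding protein of the fast sarcoplasmic reticulum at chr1:172209894-172219895, had 127896, 109058 and 147435 at 2 months and 69460, 78597 and 65673 at 20 months. Its old libraries were close together and below the young ones, and Casq1 fell by 0.84 ± 0.12 on the log2 scale (adjusted p = 0.00068). Pvalb, the calcium buffer of fast fibres, measured 313171, 240007 and 290666 at 2 months and 149911, 177142 and 141062 at 20 months and fell by 0.85 ± 0.14 (adjusted p = 0.002). Mylpf, the fast regulatory light chain, fell by 0.66 ± 0.14 (adjusted p = 0.0066). Mylk4, a kinase of this list, measured 30416, 32147 and 25762 at 2 months and 57103, 62298 and 50869 at 20 months and rose by 0.95 ± 0.11 (adjusted p = 0.00021). Myh4, the heavy chain of the fastest fibres, had 2504920, 1955530 and 2662070 at 2 months and 2460140, 2527260 and 2100590 at 20 months, and its groups overlapped (adjusted p = 1). Tnni2, the fast troponin I, had an adjusted p of 0.54 with overlapping groups. Myh2, the heavy chain of the oxidative fast fibres, measured 62164, 115766 and 89323 at 2 months and 168634, 125467 and 159179 at 20 months. It was higher in each old library and rose by 0.80 ± 0.20 (adjusted p = 0.019). The call was lost without library 1 of 20 months (adjusted p = 0.084) and also without library 1 of 2 months. Without library 1 of 20 months 4 fast fibre genes were lower, and 2 after rescaling. Myosin heavy chain genes share long stretches, and 20.5 to 22.3% of all reads aligned at more than 1 place and were not counted. Myh6, whose sequence is close to that of Myh7, had 114, 250 and 144 at 2 months and 263, 208 and 398 at 20 months with overlapping groups (adjusted p = 0.074).

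Embryonic and early postnatal sarcomere genes did not move as 1 group. The list of 12 also holds other genes, such as the stretch sensor Ankrd1, the receptor subunit Chrng and nonmuscle myosins. Of the 12, 4 were higher (Myh3, Myh10, Ankrd1 and Chrng) and 1 lower. Myh3, the embryonic myosin heavy chain, had 417, 407 and 427 at 2 months and 1756, 1271 and 1668 at 20 months. The young libraries were nearly level and all old ones far above them, and Myh3 rose by 1.89 ± 0.13 on the log2 scale (adjusted p = 5.5e-06), or 3.71-fold. Actc1, the cardiac actin that is made in growing muscle, measured 35874, 11648 and 59450 at 2 months and 1806, 1625 and 1944 at 20 months. Library 2 was again the lowest of the young mice, the old libraries were far below, and Actc1 fell by 4.03 ± 0.40 (adjusted p = 5.3e-05), or 16.3-fold. Myh10, a nonmuscle myosin, rose by 1.01 ± 0.16 (adjusted p = 0.0011).

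Genes that respond to stretch and damage of the sarcomere were largely higher, with 15 of 28 called higher, 1 lower and a median of 0.43. Ankrd2, a titin-binding stretch sensor, had 2010, 3551 and 1504 at 2 months and 9165, 7223 and 7603 at 20 months. Every old library held more than 2 times the highest young value, and Ankrd2 rose by 1.85 ± 0.23 on the log2 scale (adjusted p = 0.00024). Ankrd1, its close relative, measured 871, 412 and 667 at 2 months and 1920, 3579 and 1578 at 20 months and rose by 1.83 ± 0.28 (adjusted p = 0.001). Flnc, the muscle filamin that binds damaged Z-discs, had 27937, 36656 and 26474 at 2 months and 61329, 57484 and 57692 at 20 months. The old libraries were almost equal and all higher than the young ones, and Flnc rose by 0.97 ± 0.11 (adjusted p = 0.00017). Xirp1, a protein of injured sarcomeres, rose by 1.03 ± 0.14 (adjusted p = 0.00058), and Myom3, a myomesin of the M-band, by 1.79 ± 0.21 (adjusted p = 0.0002). The M-band protein Myom1 rose by 0.39 ± 0.10 (adjusted p = 0.018) and the Z-disc actinin Actn2 by 0.96 ± 0.19 (adjusted p = 0.0055). Myom1 lost its call without any of 4 libraries, with an adjusted p of up to 0.084 without library 1 of 20 months. The counts were 9, 9 and 8 without library 1 or 3 of 2 months or library 1 of 20 months, and 8 after rescaling. The dystrophin complex had 3 higher, among them Dmd itself, and 3 lower, among them the caveolin Cav3, of 29 members (10.3% each way, against 9.42 and 7.13% over all genes). Cav3 measured 1520, 1663 and 1628 at 2 months and 1020, 1031 and 970 at 20 months and fell by 0.67 ± 0.08 (adjusted p = 0.00026), and Dmd rose by 0.79 ± 0.17 (adjusted p = 0.0071). Without library 2 of 2 months 5 members were higher, and without library 1 of 20 months 1 was lower.

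Calcium handling genes had 6 higher and 9 lower of 41, and 3 and 4 after rescaling. Sln, or sarcolipin, an inhibitor of the calcium pump, had 29.0, 109 and 31.0 at 2 months and 702, 565 and 548 at 20 months. The lowest old library was about 5 times the highest young one, which was library 2. Sln rose by 3.67 ± 0.37 on the log2 scale (adjusted p = 6.3e-05), or 12.7-fold. Jph2, which holds the T-tubule against the sarcoplasmic reticulum, measured 52321, 48232 and 49179 at 2 months and 28906, 31574 and 25850 at 20 months. Each old library lay below the young ones, and it fell by 0.80 ± 0.10 (adjusted p = 0.00024). Sypl2, a protein of the same contact, had 20698, 22133 and 26699 at 2 months and 11905, 13004 and 12311 at 20 months and fell by 0.89 ± 0.09 (adjusted p = 8.5e-05). Camk2b, a calcium-dependent kinase, rose by 0.67 ± 0.08 (adjusted p = 0.00021), and Calm2, a calmodulin, fell by 0.47 ± 0.10 (adjusted p = 0.0071).

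Genes of the nerve-muscle contact rose in part, with 8 higher and 3 lower of 29. Musk, the receptor kinase that organizes the contact, had 337, 331 and 308 at 2 months and 1364, 1136 and 714 at 20 months. Library 3 was the lowest of the old mice and still more than 2 times the young values, which were nearly equal, and Musk rose by 1.67 ± 0.23 on the log2 scale (adjusted p = 0.00057). Chrnb1, a subunit of the acetylcholine receptor, measured 1050, 1101 and 884 at 2 months and 1446, 1704 and 1481 at 20 months and rose by 0.61 ± 0.11 (adjusted p = 0.0038). Chrng, the embryonic receptor subunit, was close to the detection limit, with 0, 8.81 and 2.89 at 2 months and 14.9, 52.3 and 14.7 at 20 months, and lost its call without library 2 of 20 months (adjusted p = 0.18). Ache, which breaks down acetylcholine, measured 1482, 1399 and 1767 at 2 months and 871, 940 and 1021 at 20 months. Old and young libraries did not overlap, and it fell by 0.71 ± 0.11 (adjusted p = 0.001). Hdac9, a histone deacetylase under nerve control, rose by 0.76 ± 0.12 (adjusted p = 0.0014). Without library 1 of 2 months or library 2 of 20 months, or after rescaling, 5 genes were higher.

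Myogenic transcription factors had 6 higher and 2 lower of 27. Myod1, the master regulator of muscle identity at chr7:46376474-46379092, had 999, 1163 and 1119 at 2 months and 540, 682 and 661 at 20 months. All young libraries exceeded all old ones, and Myod1 fell by 0.80 ± 0.12 on the log2 scale (adjusted p = 0.0007). Mkl1, a coactivator of actin genes, fell by 0.91 ± 0.16 (adjusted p = 0.0027), while Mef2a rose by 0.67 ± 0.13 (adjusted p = 0.0039) and Mef2c by 0.49 ± 0.10 (adjusted p = 0.0066). Calls of higher genes dropped to 3 without library 1 of 2 months, to 2 without library 1 of 20 months, to 3 without library 2 of 20 months and to 1 after rescaling. Of 26 Hox genes 5 were higher and 0 lower. Hox genes set position along the body and the limbs, and the higher ones were Hoxa11, Hoxa13, Hoxd8, Hoxd9 and Hoxd10. Hoxd8, Hoxd9 and Hoxd10 are neighbours on chromosome 2, with gaps of 4.41 and 2.66 kb. Hoxd10 measured 60.2, 28.2 and 73.6 at 2 months and 211, 245 and 166 at 20 months. Its old libraries were all above its young ones, and it rose by 2.01 ± 0.38 (adjusted p = 0.0042). Hoxa13 measured 26.7, 72.2 and 31.0 at 2 months and 123, 127 and 109 at 20 months, with library 2 the highest of the young mice, and rose by 1.58 ± 0.33 (adjusted p = 0.0071). Without library 1 or 2 of 20 months 3 Hox genes were higher.

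The IGF system of growth factors fell in part, with 7 lower and 2 higher of 17 and a median of -0.44. Igf1, the insulin-like growth factor that drives muscle growth, at chr10:87858265-87937047, had 1542, 1094 and 1526 at 2 months and 559, 531 and 402 at 20 months. The young libraries were all at least about 2 times the old ones, and Igf1 fell by 1.48 ± 0.16 on the log2 scale (adjusted p = 8.7e-05). Igf2, its fetal relative, measured 1476, 1353 and 1826 at 2 months and 958, 928 and 863 at 20 months and fell by 0.75 ± 0.11 (adjusted p = 0.00069). Irs1, the docking protein of the insulin and IGF receptors, had 6954, 7348 and 6659 at 2 months and 4282, 4655 and 3290 at 20 months and fell by 0.79 ± 0.13 (adjusted p = 0.0018). Irs2, the other docking protein, went up in all old libraries, with 749, 634 and 721 at 2 months and 1601, 1044 and 1078 at 20 months, and rose by 0.80 ± 0.15 (adjusted p = 0.0041). Igfbp6, a binding protein that prefers IGF2, fell by 0.82 ± 0.15 (adjusted p = 0.0027). With any 1 library left out 6 or 7 were lower, and 4 after rescaling.

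Imprinted growth genes, which are read from 1 parental copy and mostly in early life, had 9 lower and 4 higher of 22, with a median of -0.51. Meg3 and Rian are maternally read noncoding RNAs of the same cluster, at chr12:109540996-109571729 and chr12:109603945-109661716, 32.2 kb apart. Rian had 1277, 1308 and 972 at 2 months and 224, 164 and 218 at 20 months. The old libraries were all far below the young ones, and Rian fell by 2.55 ± 0.19 on the log2 scale (adjusted p = 8.7e-06), or 5.85-fold. Meg3 measured 370, 583 and 356 at 2 months and 63.5, 48.9 and 110 at 20 months. It showed the same separation, with library 3 the highest of the old mice, and fell by 2.59 ± 0.39 (adjusted p = 0.00096). Cdkn1c, an imprinted inhibitor of cell division, fell by 0.67 ± 0.12 (adjusted p = 0.0027). Peg10, a retrotransposon-derived gene, measured 118, 79.3 and 112 at 2 months and 232, 302 and 212 at 20 months. It was higher in all old libraries and rose by 1.27 ± 0.20 (adjusted p = 0.0014). Lower calls numbered 7 to 10 when any 1 library was left out and 4 after rescaling, and 2 genes were higher without library 2 of 2 months or library 1 or 2 of 20 months. The TGF-beta and myostatin pathway had 4 higher (11.1%) and 2 lower (5.56%) of 36, against 9.42 and 7.13% over all genes, with a median of -0.01. Fstl1, a secreted follistatin-like protein, had 2895, 2793 and 3338 at 2 months and 1795, 1669 and 1847 at 20 months and fell by 0.76 ± 0.10 (adjusted p = 0.00032). Smad3, a signal transducer, fell by 0.59 ± 0.10 (adjusted p = 0.002). Tgfb3, Tgfbr1 and Bmpr2 were among the higher genes of the pathway. Its higher calls fell to 0 without library 1 or 2 of 20 months, to 1 without library 2 of 2 months and to 2 without library 3 of either age, and 4 genes were lower without library 3 of 2 months.

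Genes of muscle wasting were among those that rose. Of 28 atrophy ligases and FoxO genes 14 were higher and 3 lower, with a median of 0.26. Foxo1, a transcription factor that turns on protein breakdown, had 1204, 1225 and 1092 at 2 months and 2871, 2237 and 2624 at 20 months. Its groups were well apart, and Foxo1 rose by 1.13 ± 0.11 on the log2 scale (adjusted p = 3.9e-05). Foxo3 measured 662, 513 and 400 at 2 months and 1117, 921 and 952 at 20 months and rose by 0.95 ± 0.16 (adjusted p = 0.002). Foxo6, another member, went down in all old libraries, with 354, 515 and 402 at 2 months and 95.3, 125 and 138 at 20 months, and fell by 1.82 ± 0.20 (adjusted p = 0.00012). Fbxo40, a muscle ubiquitin ligase that targets Irs1, rose by 0.60 ± 0.09 (adjusted p = 0.0007). The classical ligases Fbxo32 and Trim63, singled out here after their values were seen, are the usual markers of wasting. Fbxo32 had 21981, 15914 and 8130 at 2 months and 35310, 32710 and 31047 at 20 months and rose by 1.22 ± 0.25 (adjusted p = 0.0067). Trim63 had 10041, 8781 and 5960 at 2 months and 15963, 13358 and 12772 at 20 months and rose by 0.79 ± 0.16 (adjusted p = 0.006). In both, library 3 was the lowest of the young mice and the groups were apart. Without library 1, 2 or 3 of 20 months 6, 9 and 9 genes of this list were higher, and 6 after rescaling.

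Of 55 autophagy and lysosome genes 8 were higher (14.5%) and 6 lower (10.9%), against 9.42 and 7.13% over all genes, with a median of -0.03. After rescaling 2 were higher and 1 lower. Gabarapl1, a protein of the autophagosome membrane, had 1574, 1447 and 1148 at 2 months and 3008, 2399 and 2754 at 20 months. It was higher in every old library and rose by 0.98 ± 0.12 on the log2 scale (adjusted p = 0.00028). Wipi1, which binds the forming membrane, rose by 0.59 ± 0.08 (adjusted p = 0.00052), and Ulk1, the kinase that starts autophagy, by 0.42 ± 0.07 (adjusted p = 0.0017). The lower members were lysosomal: Ctsf, Ctsh, Ctsk, Ctsl, Npc2 and Grn. The lysosomal gene Npc1 was among the higher members, however. Ctsl, a cysteine protease, measured 6388, 5494 and 5723 at 2 months and 4239, 4432 and 4511 at 20 months and fell by 0.41 ± 0.08 (adjusted p = 0.0037). The lower calls dropped to 2 without library 1 of 2 months or library 1 or 2 of 20 months and to 3 without library 3 of either age. The proteasome had 3 higher (7.5%, against 9.42% over all genes) and 1 lower of 40 subunits and a median of 0.04, and 0 or 1 were higher without library 2 or 3 of 2 months or library 1 or 2 of 20 months.

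Of 51 heat shock proteins and cochaperones, which keep other proteins folded, 12 were higher and 6 lower, and after rescaling to 1 sum 2 and 0. Hspb7, a small heat shock protein, had 10438, 19787 and 9589 at 2 months and 38182, 32753 and 34735 at 20 months. Library 2 was the highest of the young mice and all old libraries exceeded it, with a rise of 1.48 ± 0.20 on the log2 scale (adjusted p = 0.00046). Cryab, the alpha-B crystallin, measured 18841, 24869 and 18431 at 2 months and 43382, 35391 and 36970 at 20 months and rose by 0.91 ± 0.12 (adjusted p = 0.00039). Bag3, which passes damaged filamin to autophagy, rose by 0.51 ± 0.08 (adjusted p = 0.00092). Dnajb5, a cochaperone, measured 7652, 7406 and 7805 at 2 months and 5664, 6098 and 5723 at 20 months and fell by 0.39 ± 0.07 (adjusted p = 0.0028). Without library 1 of 20 months 7 were higher, and 1 to 3 were lower without library 1 of 2 months or any old library. Stress genes of the endoplasmic reticulum had 5 higher and 1 lower of 32, with 8 higher without library 3 of 2 months and 1 after rescaling. The sensors Atf6 and Ern1 rose by 0.43 ± 0.09 (adjusted p = 0.0071) and 0.60 ± 0.13 (adjusted p = 0.0071), and Xbp1, the factor that Ern1 activates by splicing, by 0.39 ± 0.08 (adjusted p = 0.0081). Atf4, the factor of the integrated stress response, measured 7427, 6952 and 7036 at 2 months and 5247, 5425 and 5630 at 20 months and fell by 0.39 ± 0.08 (adjusted p = 0.0043).

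Antioxidant genes had 8 higher and 1 lower of 48. Nqo1, a quinone reductase and known target of the factor Nfe2l2, had 606, 537 and 549 at 2 months and 1211, 1146 and 1139 at 20 months. Values were nearly level within each age and higher at 20 months, with a rise of 1.05 ± 0.10 on the log2 scale (adjusted p = 5.2e-05). Srxn1, which repairs peroxiredoxins, measured 834, 737 and 810 at 2 months and 1367, 1394 and 1416 at 20 months and rose by 0.81 ± 0.08 (adjusted p = 6.6e-05). Nfe2l2 itself rose by 0.60 ± 0.13 (adjusted p = 0.0081) and Cat, the catalase, by 0.71 ± 0.12 (adjusted p = 0.002). Gpx1, a glutathione peroxidase, measured 2501, 1574 and 1743 at 2 months and 1349, 1220 and 1266 at 20 months. It was lower in each old library, fell by 0.57 ± 0.14 (adjusted p = 0.014), and lost its call without library 2 of 20 months (adjusted p = 0.055). Without library 3 of 2 months 5 were higher, without library 1 of 20 months 4, and after rescaling 3.

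Circadian clock genes are read in daily waves, and the hour at which the mice were killed is not given in the sources used here. Of 23 tested 7 were higher and 2 lower, with 6 or 7 higher when any 1 library was left out. Per1, a repressor of the clock, had 1507, 1457 and 1393 at 2 months and 2660, 2946 and 2911 at 20 months. Values within an age were nearly equal, the old libraries were about 2 times the young ones, and Per1 rose by 0.97 ± 0.09 on the log2 scale (adjusted p = 3.6e-05). Gm129, a repressor now named Ciart, measured 145, 109 and 105 at 2 months and 347, 366 and 268 at 20 months. The groups were apart again, and Gm129 rose by 1.45 ± 0.19 (adjusted p = 0.00033). Per2 rose by 1.04 ± 0.13 (adjusted p = 0.00021) and Cry2, a repressor that binds the Per proteins, by 1.00 ± 0.09 (adjusted p = 3.9e-05). Nr1d1 and Dbp, which lie on other arms of the clock, were called lower, with no such call without library 1 or 3 of 20 months and 1 without library 1 or 2 of 2 months. The core activators bind the E-box CACGTG, which 10.1% of the 13082 promoters searched held on either strand between 250 bases before and 50 after the start. Among the 7 higher clock genes Gm129 and Per1 held it, and 3 of the 14 that were not called, Bhlhe41, Cry1 and Tef. The 250 bases before the start of a curated transcript of these 2 genes are shown, since both rose and hold the element, in RefSeq sequence of GRCm38.p6 read along the gene and with the E-boxes in capitals. Per1 lies on the plus strand at chr11:69098699-69098948, with its E-box 166 bases before the start, and Gm129 on the minus strand at chr3:95882229-95882478, with E-boxes 116, 58 and 44 bases before it.
Per1: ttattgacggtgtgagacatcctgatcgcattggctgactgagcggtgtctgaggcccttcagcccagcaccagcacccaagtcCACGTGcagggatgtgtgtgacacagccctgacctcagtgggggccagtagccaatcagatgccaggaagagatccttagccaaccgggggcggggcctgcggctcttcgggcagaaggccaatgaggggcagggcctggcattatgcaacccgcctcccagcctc
Gm129: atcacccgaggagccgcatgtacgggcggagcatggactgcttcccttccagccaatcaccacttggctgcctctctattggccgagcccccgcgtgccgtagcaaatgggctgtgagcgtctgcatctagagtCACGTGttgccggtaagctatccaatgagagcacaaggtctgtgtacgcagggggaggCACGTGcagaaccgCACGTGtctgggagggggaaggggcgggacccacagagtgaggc

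Immediate early genes, which answer to activity, stress or handling of the tissue within minutes, had 11 higher and 3 lower of 39, with a median of 0.14. Fos, a subunit of the factor AP-1, had 245, 217 and 193 at 2 months and 624, 801 and 797 at 20 months. Every old library was more than 2 times every young one, and Fos rose by 1.76 ± 0.14 on the log2 scale (adjusted p = 1.9e-05). Atf3, a stress-induced factor, measured 181, 183 and 269 at 2 months and 456, 418 and 469 at 20 months and rose by 1.11 ± 0.25 (adjusted p = 0.011). Maff, a small Maf protein, rose by 1.13 ± 0.24 (adjusted p = 0.0081), Ier3 by 0.83 ± 0.18 (adjusted p = 0.0076) and Ctgf, a matrix-linked growth factor, by 0.82 ± 0.18 (adjusted p = 0.0083). With any 1 library left out 8 to 12 were higher, and 7 after rescaling. The lower calls fell to 0 without library 1 of 2 months and to 1 without any 1 old library, and rose to 6 without library 3 of 2 months.

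Interferon-stimulated genes, which defend cells against viruses, were often lower at 20 months. Of 57 tested 18 were lower and 1 higher, 50 lay below 0, and the median was -0.38. Irf7, the factor that amplifies the response, at chr7:141263183-141266499, had 143, 159 and 159 at 2 months and 54.2, 35.4 and 74.1 at 20 months. The young libraries were nearly level and all above the old ones, and Irf7 fell by 1.53 ± 0.27 on the log2 scale (adjusted p = 0.0029). Gbp7, a guanylate-binding protein at chr3:142530336-142550151, measured 642, 816 and 910 at 2 months and 316, 278 and 223 at 20 months. All old values were lower, and it fell by 1.53 ± 0.16 (adjusted p = 8.2e-05). Gbp3, its neighbour on chromosome 3, measured 227, 197 and 199 at 2 months and 116, 82.7 and 121 at 20 months and fell by 0.97 ± 0.19 (adjusted p = 0.0043). The member called higher was Gbp6, on chromosome 5, with 93.6, 104 and 128 at 2 months and 568, 332 and 607 at 20 months. Its groups were far apart, and it rose by 2.16 ± 0.21 (adjusted p = 4.7e-05). Guanylate-binding proteins are close copies of each other, and how reads were divided among them is uncertain. Without library 2 of 2 months 8 genes were lower, without library 1 or 3 of 20 months 11, and 2 after rescaling to 1 sum. Without the 3 libraries numbered 3 the count was 5.

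The interferon-stimulated response element, searched on both strands as GAAA followed after any 2 bases by a second GAAA, was in 3.11% of the 13082 promoters and in 28 of the 57 interferon promoters. It was in 10 of the 18 called lower and in 18 of the 38 not called, so it was about as frequent in both. Gbp7 and Gbp3 are shown as 2 neighbouring members that fell, with the 250 bases before the start of a curated transcript in RefSeq sequence of GRCm38.p6, plus strand, at chr3:142530086-142530335 and chr3:142559794-142560043, and with the element in capitals, which reads TTTC, 2 bases and TTTC since it lies on the other strand. It begins 53 bases before the start of Gbp7, and in Gbp3 overlapping copies begin 45 and 39 bases before.
Gbp7: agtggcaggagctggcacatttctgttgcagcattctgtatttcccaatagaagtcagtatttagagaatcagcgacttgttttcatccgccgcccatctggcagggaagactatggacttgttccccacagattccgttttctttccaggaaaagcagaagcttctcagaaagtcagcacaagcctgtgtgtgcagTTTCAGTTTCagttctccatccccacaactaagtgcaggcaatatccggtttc
Gbp3: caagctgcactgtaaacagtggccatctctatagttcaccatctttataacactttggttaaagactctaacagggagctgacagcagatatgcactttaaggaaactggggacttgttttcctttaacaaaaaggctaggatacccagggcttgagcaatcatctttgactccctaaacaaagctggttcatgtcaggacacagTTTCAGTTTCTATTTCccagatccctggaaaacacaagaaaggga

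Class I antigen presentation had 2 lower of 23 (8.70%, against 7.13% over all genes) with a median of -0.29, and class II 2 lower of 10 with a median of -0.38. Psmb8, a subunit of the immunoproteasome, measured 290, 241 and 225 at 2 months and 148, 159 and 132 at 20 months and fell by 0.78 ± 0.19 (adjusted p = 0.015), with adjusted p = 0.064 without library 1 of 2 months. Cd74, the invariant chain of class II molecules, measured 1761, 1651 and 1910 at 2 months and 1349, 1389 and 1277 at 20 months. All young libraries were above all old ones, and Cd74 fell by 0.40 ± 0.10 (adjusted p = 0.013). Complement had 7 lower (30.4%) and 2 higher of 23, with a median of -0.35. Cfp, or properdin, measured 132, 125 and 179 at 2 months and 50.4, 35.4 and 69.2 at 20 months and fell by 1.51 ± 0.28 (adjusted p = 0.0037). Vtn, the matrix protein vitronectin, fell by 0.67 ± 0.13 (adjusted p = 0.0054). Without library 3 of 2 months 3 complement genes were lower, without library 2 or 3 of 20 months 4, and after rescaling 2. No complement gene was higher without library 1 of 2 months or library 3 of 20 months, and 1 was without library 1 or 2 of 20 months. Of 28 chemokines and receptors 2 were higher (7.14%) and 1 lower (3.57%), against 9.42 and 7.13% over all genes. Cx3cl1, or fractalkine, measured 64.6, 56.4 and 65.0 at 2 months and 148, 177 and 191 at 20 months. Each old library was more than 2 times each young one, and Cx3cl1 rose by 1.45 ± 0.19 (adjusted p = 0.0003). Cxcl10, an interferon-induced chemokine, was low, at 0, 5.29 and 5.78 at 2 months and 28.0, 55.7 and 22.3 at 20 months, and rose by 3.27 ± 0.69 (adjusted p = 0.0071), or by 2.37 without library 1 of 2 months. Ccr2, the receptor of inflammatory monocytes, measured 147, 169 and 152 at 2 months and 37.4, 62.4 and 82.8 at 20 months and fell by 1.41 ± 0.28 (adjusted p = 0.0051).

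The enzymes of DNA methylation are of interest because the study also mapped methylation in muscle DNA of these mice. Of 22 writers, erasers and readers 3 were lower and 1 higher. Tet1, which oxidizes methylated cytosine, at chr10:62804570-62887469, had 363, 367 and 191 at 2 months and 57.9, 69.2 and 45.2 at 20 months. Library 3 was the lowest of the young mice and all old libraries were lower still, with a fall of 5.12-fold, or -2.36 ± 0.30 (adjusted p = 0.00032). Dnmt3a, which sets new methylation, measured 4005, 4920 and 3620 at 2 months and 2636, 3046 and 2481 at 20 months. Each old library lay below the young ones, and it fell by 0.61 ± 0.12 (adjusted p = 0.0055). Tet3 fell by 0.57 ± 0.17 (adjusted p = 0.038) and lost its call without library 1 of 2 months (adjusted p = 0.14). Dnmt1, which copies methylation at cell division, had 477, 396 and 365 at 2 months and 454, 410 and 408 at 20 months with overlapping groups (adjusted p = 0.84), and Tet2 was not called either (adjusted p = 0.4). Retroelement repression genes had 2 higher (6.06%, against 9.42% over all genes) and 1 lower of 33. The repressors Setdb1 and Trim28 had overlapping groups (adjusted p = 0.74 and 0.66), and Hnrnpk, an RNA-binding protein, had 4242, 4187 and 4287 at 2 months and 4708, 4971 and 4946 at 20 months without passing the threshold (adjusted p = 0.066). Atf7ip, a partner of Setdb1, measured 1077, 1052 and 1003 at 2 months and 1696, 1660 and 1346 at 20 months and rose by 0.58 ± 0.11 (adjusted p = 0.0045).

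Of 56 splicing factors 8 were higher (14.3%, against 9.42% over all genes) and 0 lower, with a median of 0.11. Srrm1, a scaffold of the spliceosome, had 1792, 1960 and 2078 at 2 months and 2602, 2813 and 2724 at 20 months. All old libraries were above all young ones, and Srrm1 rose by 0.48 ± 0.08 on the log2 scale (adjusted p = 0.0017). Qk, a regulator of muscle splicing and myelin RNA, rose by 0.55 ± 0.10 (adjusted p = 0.0025). Splicing calls numbered 5, 3 and 5 without library 1 of 2 months or library 1 or 2 of 20 months, and 0 after rescaling. Translation factors had 9 higher (19.1%) and 2 lower of 47. Eif3a, the largest subunit of initiation factor 3, measured 7837, 7207 and 7864 at 2 months and 10982, 10442 and 9663 at 20 months and rose by 0.44 ± 0.08 (adjusted p = 0.0032). Pabpc1, the poly(A)-binding protein, measured 5300, 4545 and 6156 at 2 months and 3611, 3665 and 3508 at 20 months and fell by 0.56 ± 0.11 (adjusted p = 0.0046). Without library 1 of 2 months 5 were higher, without library 1 or 2 of 20 months 4, and after rescaling 0. Cytosolic ribosomal proteins had 3 lower of 81 (3.7%, against 7.13% over all genes) and a median of -0.08. Without library 3 of 2 months 6 ribosomal genes were lower, and without any other single library of the 6 the count was 1.

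Smaller lists had few calls. Serine and one-carbon metabolism had 1 higher and 3 lower of 20, and 0 or 1 lower without library 1 or 3 of 2 months or library 1 or 2 of 20 months. Polyamine metabolism had 1 lower of 10, Oaz2, an antizyme that restrains polyamine synthesis, whose adjusted p without library 1 of 20 months was 0.12. Secreted muscle factors had 3 higher and 4 lower of 19. Ostn, or musclin, a peptide that muscle releases with activity, at chr16:27307641-27351209, had 225, 132 and 352 at 2 months and 4405, 4731 and 4282 at 20 months. The old libraries were nearly equal and at least about 12 times the young ones, and Ostn rose by 4.35 ± 0.31 on the log2 scale (adjusted p = 7.7e-06). Tnfsf10, the death ligand TRAIL, measured 363, 425 and 427 at 2 months and 142, 199 and 162 at 20 months. Old and young libraries did not overlap, and it fell by 1.28 ± 0.17 (adjusted p = 0.00049).

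Cell division genes had few calls. Of 44 tested 1, Top2a, was lower and 0 were higher, with a median of -0.70 that became -0.30 without library 1 of 2 months, and 5 were lower without library 2 of 2 months. Top2a, the topoisomerase of dividing cells, had 247, 8.81 and 13.7 at 2 months and 3.74, 0 and 2.18 at 20 months. Library 1 alone was high among the young mice, and its adjusted p without that library was 0.18. The PCNA-binding factor 2810417H13Rik showed the same library at the top, with 89.2, 12.3 and 18.0 at 2 months and 0, 6.75 and 0 at 20 months, and the same loss (adjusted p = 0.18). This was the library with the high marrow and cartilage markers, and their part in the result was not tested. Growth arrest and p53 genes had 4 higher (12.1%) and 3 lower (9.09%) of 33, against 9.42 and 7.13% over all genes. Eda2r, the receptor of ectodysplasin A2 and a known p53 target, had 865, 941 and 589 at 2 months and 3529, 3955 and 2999 at 20 months. The old libraries were all at least about 3 times the young ones, and Eda2r rose by 2.15 ± 0.18 on the log2 scale (adjusted p = 2.2e-05). Cdkn1b, an inhibitor of cyclin-dependent kinases, measured 2006, 2076 and 1774 at 2 months and 1052, 1122 and 1275 at 20 months. The old libraries were all lower, and it fell by 0.76 ± 0.10 (adjusted p = 0.00031).

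Among the called genes with groups apart, most of the 12 with the largest rise were nearly silent at 2 months. Tmem132b, a membrane protein gene at chr5:125532418-125792583, had 4.46, 1.76 and 10.1 at 2 months and 415, 368 and 320 at 20 months. Each old library held over 30 times the highest young value, and Tmem132b rose by 6.06 ± 0.39 on the log2 scale (adjusted p = 5.2e-06). Tecrl, an endoplasmic reticulum protein linked to heart rhythm, measured 2.23, 3.52 and 4.33 at 2 months and 189, 72.6 and 192 at 20 months and rose by 5.03 ± 0.44 (adjusted p = 2.6e-05). Uts2d, a urotensin-like peptide, went from 4.46, 0 and 0.722 counts to 105, 110 and 95.9. Lrrc52, an auxiliary subunit of potassium channels, measured 2.23, 14.1 and 52.0 at 2 months and 368, 169 and 302 at 20 months, and all of its old libraries were above the young ones. It rose by 4.28 ± 0.71 (adjusted p = 0.0018), and by 3.24 without library 1 of 2 months. The others of the 12 largest were Nkx2-2as, Tekt1, 4933415F23Rik, Unc13d, Chrm3, Gdf5, Ostn and Sln. Gdf5, a bone morphogenetic protein, measured 0, 0 and 5.78 at 2 months and 14.9, 38.8 and 13.6 at 20 months, and its call was lost without library 2 of 20 months (adjusted p = 0.056). Chrm3, a muscarinic acetylcholine receptor, measured 11.1, 0 and 18.0 at 2 months and 74.7, 77.6 and 56.1 at 20 months, and its adjusted p without library 1 of 20 months was 0.056. Nkx2-2as is an antisense gene, and since the library kit does not mark strand its reads cannot be told apart from those of an overlapping gene.

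The 12 with the largest fall were C130080G10Rik, Mpo, Col2a1, Adrb3, Actc1, Pappa2, C1qtnf3, 2810417H13Rik, Top2a, Elovl6, Acp5 and Mrap. Mrap lost its call without library 3 of 2 months (adjusted p = 0.13). C130080G10Rik had 91.4, 44.1 and 248 at 2 months and 0, 3.37 and 0.545 at 20 months, so that its old libraries held almost none. Pappa2, a protease that frees IGF from its binding proteins, measured 89.2, 51.1 and 107 at 2 months and 3.74, 1.69 and 8.72 at 20 months. The groups were far apart, and Pappa2 fell by 4.00 ± 0.56 on the log2 scale (adjusted p = 0.00056). Acp5, an acid phosphatase of bone-resorbing cells, measured 749, 89.9 and 93.1 at 2 months and 16.8, 8.44 and 21.8 at 20 months. Library 1 stood above the other young libraries by a factor of about 8, and all old libraries were lower than these. Acp5 fell by 3.57 ± 0.69 (adjusted p = 0.0044), with a difference of -2.56 without library 1 of 2 months. C1qtnf3, a secreted relative of adiponectin, measured 55.7, 70.5 and 152 at 2 months and 0, 6.75 and 25.1 at 20 months, and its adjusted p without library 3 of 2 months was 0.057.

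Families were also formed by the letters of the symbol alone, which gave 158 families of at least 10 tested genes. The highest shares of higher members were in Abca (4 of 10), Myh (5 of 13), Usp (16 of 47), Kdm (5 of 15), Myl (3 of 10) and Exoc (3 of 11), against 9.42% over all genes. Exoc also had 2 lower members, and Abca, Usp and Myl 1 each. Usp genes code for proteases that remove ubiquitin. Usp54 had 118, 157 and 133 at 2 months and 288, 272 and 255 at 20 months. All old libraries were above all young ones, and Usp54 rose by 1.00 ± 0.16 on the log2 scale (adjusted p = 0.0014). Abca7, a lipid transporter, measured 506, 566 and 621 at 2 months and 910, 1007 and 958 at 20 months and rose by 0.77 ± 0.10 (adjusted p = 0.00033). Kdm6a, a demethylase of histone H3, rose by 0.41 ± 0.09 (adjusted p = 0.0099), and the nonmuscle myosin Myh14 by 0.84 ± 0.09 (adjusted p = 0.0001). The highest shares of lower members were in Col (23 of 42), Adamts (5 of 14), Aldh (5 of 18), Sept (3 of 11), Unc (3 of 11) and Kctd (4 of 17), against 7.13%. Unc also had 2 higher members, and Aldh and Kctd 1 each. Aldh4a1, which breaks down proline, measured 5777, 5974 and 6976 at 2 months and 4270, 4205 and 4396 at 20 months. Each old library lay below the young ones, and it fell by 0.54 ± 0.09 (adjusted p = 0.0015). Adamts12, a protease of the matrix, measured 207, 174 and 194 at 2 months and 105, 77.6 and 55.6 at 20 months and fell by 1.31 ± 0.25 (adjusted p = 0.0042).

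Calls also varied with the size of the gene. Genes were cut into 10 classes by the length of their longest transcript. In the shortest class, with a median of 1.09 kb, 3.36% were higher and 11.1% lower, and in the longest, with a median of 8.37 kb, 22.1% were higher and 5.19% lower. The median difference went from -0.14 to 0.19. The higher genes had a median transcript of 4.65 kb, the lower genes of 3.08 kb and genes that were not called of 3.35 kb. By library, the median deviation of the longest class minus that of the shortest was -0.19, -0.18 and -0.22 at 2 months and 0.17, 0.14 and 0.12 at 20 months, so these ages did not overlap. Long genes also span more of the genome, and in the longest class of span 18.8% were higher, against 3.96% in the shortest. The GC content of the transcript moved with the same calls, at a median of 47.9% for higher and 52.8% for lower genes. Higher genes were the more abundant ones as well, with 20.8% called in the top class of mean level and 1.37% in the lowest, where counts are fewest. By library, the median deviation of the top class of level minus that of the lowest was -0.28, -0.14 and -0.24 at 2 months and 0.19, 0.32 and -0.20 at 20 months, so that library 3 of 20 months lay within the young range. The giant sarcomere genes are among the long ones: Neb had 369333, 383488 and 283773 at 2 months and 660203, 657223 and 446742 at 20 months and rose by 0.76 ± 0.22 (adjusted p = 0.032), a call lost without library 1 of 20 months (adjusted p = 0.13). The small subunits of complex I and of the ribosomes are among the short ones. The part of transcript length in these results was not tested.

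**Figure D5:**
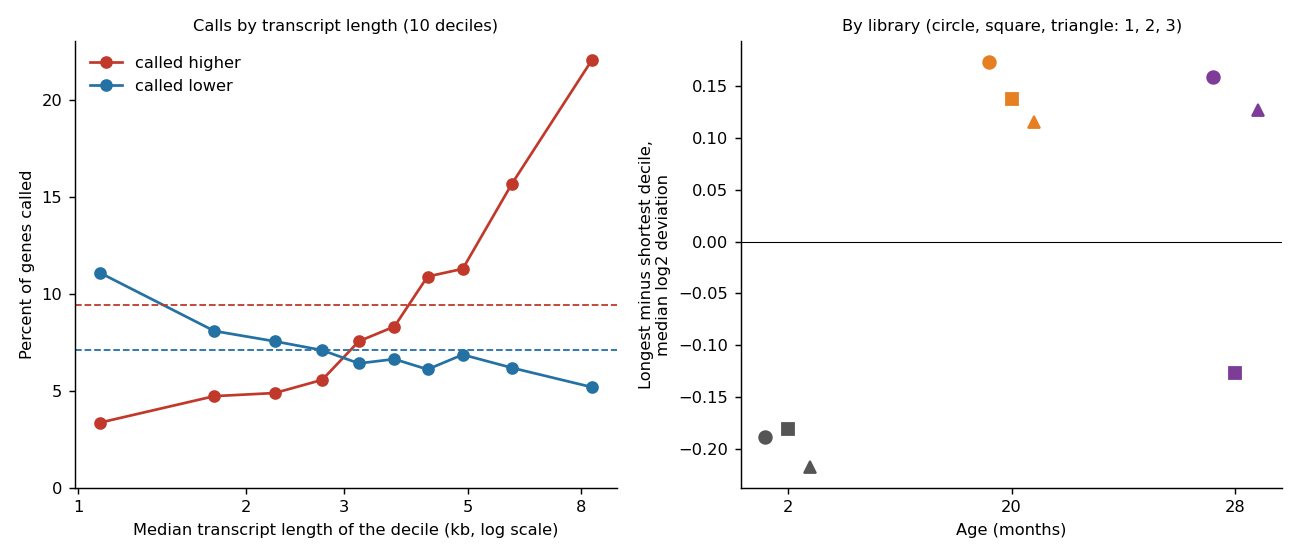
Left, share of genes called higher (red) or lower (blue) at 20 months in 10 classes of transcript length, plotted at the median length of the class (kb, log axis), with dashed lines for all genes. Right, median log2 deviation of the longest class minus that of the shortest in each library. Circle, square and triangle mark libraries 1, 2 and 3. The value was below 0 in the 3 libraries of 2 months and above 0 in the 3 of 20 months. At 28 months, also plotted, libraries 1 and 3 were at 0.16 and 0.13 and library 2 at -0.13.

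The methylation of promoters in the same mice was set beside these calls. The captured DNA of 3 mice was pooled for each age, so that there is 1 value per age and no test. For 12634 of the tested genes (95.9%) the 500-bp bin that holds the start of the gene had a value. The median was 0.91 normalized counts at 2 months for genes called higher, called lower or not called alike. At 20 months it was 0 for higher genes and 0.84 for lower and other genes. The median log2 difference between the ages was 0 in each class. Values were close to 0, and 45.6% of higher, 41.5% of lower and 43.4% of other genes had 0 at 2 months. Equal medians therefore say little about differences in methylation. Bins with a lower value at 20 months made up 40.5% of higher, 39.4% of lower and 42.0% of other genes. Bins with more than 20 counts, the more methylated ones, made up 9.25% of higher, 10.2% of lower and 8.87% of other genes at 2 months and 8.83, 9.60 and 8.23% at 20 months.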

How the data were processed

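RNA-seq values came from 9 muscle libraries, 3 mice each at 2, 20 and 28 months. The deposited values were a signal, normalized read counts: per the study's methods the authors trimmed reads with Trim Galore, aligned them to mm10 with Hisat2 (the submitters' processing notes name TopHat), counted them per gene with htseq-count and divided them by DESeq2 size factors. The deposited table of captured methylated DNA held normalized coverage counts of 500-bp bins, from 1 pool of 3 mice per age.

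Rows without a gene (5) were dropped, and genes with a mean of at least 10 were tested on log2(value + 1) with limma 3.58.1 (limma-trend, R 4.3.3) over all 9 libraries, with Benjamini-Hochberg adjustment. The added 1 understates the fold change of low genes. Every deposited value was a whole number of reads to within 0.01 reads after undoing the size factor, so edgeR 4.0.16 (quasi-likelihood test) and DESeq2 1.42.0 were run on these reads as alternatives, with other scalings, filters, pseudocounts and libraries left out. Scripts were tested on simulated data. Reads on genes numbered 20203833 to 71115244 per library.

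Members and lists were chosen with earlier results of these data known. Of 1815 genes in 61 lists, 1667 were tested and 29 were matched through an older symbol. Genes named were the 12 largest rises and falls among called genes whose groups did not overlap, up to 5 called members of a list with the smallest adjusted p, genes the study names, and up to 4 members of a named family. Replicate numbers did not pair the samples. The pairs numbered 3 deviated together (r = 0.109 to 0.161), but so did library 2 of 20 months and library 1 of 28 months (r = 0.117). No column of a sample outside the series was used. Sequences and starts are from RefSeq, GRCm38.p6. Some genes are not reported here.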

Additional observations from a re-analysis of the deposited data

How the results depend on the processing

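All 2181 called genes kept their direction under every alternative that gave them a value (2079 with a mean of at least 50), and no named gene reversed. Rescaling all libraries to the same sum gave 354 higher and 232 lower calls, 576 of them among the 2181. Leaving out 1 library gave 613 to 1273 higher and 468 to 958 lower calls, lowest without library 1 of 20 months, and 264 to 347 higher and 333 to 475 lower genes past 2-fold. Without the 3 libraries numbered 3 the calls were 683 and 416. Genes more than 2-fold lower numbered 205 with a mean of at least 50 and 732 with no filter, where fewer and more low genes were tested. The fit with a replicate block called 1696 and 1304 genes, edgeR 1230 and 970, and DESeq2 1437 and 1123. With the block the lower calls became 11 for complex I, 13 for complexes II to V, 15 for mitochondrial and 8 for cytosolic ribosomal proteins, 5 for cell division, 7 for the dystrophin complex, 5 for atrophy ligases and 5 for class I antigen presentation, and the higher calls 10 for stress genes of the endoplasmic reticulum, 6 for the proteasome, 5 for the dystrophin complex and 5 for secreted muscle factors. The other causes were not tested. Of 278 called named genes 123 passed the threshold in every alternative. The depth of the libraries limits genes with few reads, and 10997 genes were not called, which does not show that they did not differ.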

Other observations

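The same genes were also measured at 28 months, in libraries that were part of the fit. The values are set side by side for genes chosen after they were seen, and since the 20-month libraries enter both differences, with 2 and with 28 months, no count of genes that turned back is given. Over the fit, 28 genes were higher and 22 lower at 28 than at 20 months.

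Per1, a clock repressor, had 1490, 1574 and 1314 counts at 28 months, against 2660, 2946 and 2911 at 20 months and 1507, 1457 and 1393 at 2 months. Ucp3, the uncoupling protein, had 1178, 2112 and 1304 at 28 months, against 5688, 3013 and 6338 at 20 months and 1340, 1480 and 1221 at 2 months. Plin4, the lipid droplet coat protein, had 6554, 7317 and 7051 at 28 months, against 10502, 8759 and 10909 at 20 months and 5960, 6642 and 5710 at 2 months. In each of these the 28-month libraries lay below the 20-month ones.

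Irf7, the interferon factor, had 213, 134 and 138 counts at 28 months, where it had 143, 159 and 159 at 2 and 54.2, 35.4 and 74.1 at 20 months. Gbp7, a guanylate-binding protein, had 607, 604 and 494 at 28 months, against 642, 816 and 910 at 2 and 316, 278 and 223 at 20 months. Both were higher in every 28-month library than in any 20-month library. C4b, a complement gene, had 359, 340 and 469, then 575, 552 and 548, then 854, 1264 and 1178 counts at 2, 20 and 28 months, with no overlap between the ages.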
